A study of Homo sapiens with 6 samples.

Results

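SNX8 and 8 genes of the retromer pathway, SNX1, SNX2, SNX5, SNX6, VPS26A, VPS26B, VPS29 and VPS35, were followed through RNA sequencing of HEK293 cells, a human embryonic kidney cell line. These are 9 of the 57773 genes in the count table, found by matching gene identifiers to symbols, and all 9 passed the filter on low counts that left 22010 genes for testing. SNX8 was chosen by its measured level in cells with disrupted ZNF507 relative to the control, so its differences between that group and the others are given as descriptions without a test. The other 8 genes were included for their family or complex and were tested in every comparison.

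The study disrupted the zinc finger genes ZNF146 and ZNF507, whose proteins bind LINE-1 sequences, to ask how their loss alters the transcriptome. All cells were transiently transfected with a Cas9 plasmid, either as an empty vector control (EV) or carrying guides, 4 against ZNF146 (sgZNF146) or 4 against ZNF507 (sgZNF507). All were selected with puromycin for 36 hours and grown out to a total of 2 weeks. There were 6 libraries, 2 replicates in each of the 3 groups, each from a population of transfected cells and not from a clone.

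Retromer is a coat on endosomes that returns membrane proteins to the trans-Golgi network or the cell surface before they reach the lysosome. Its core is a trimer of VPS35, VPS29 and VPS26, the last encoded by VPS26A and VPS26B. Sorting nexins of the SNX-BAR class carry a PX domain that binds phosphoinositides and a BAR domain that senses or bends membrane. SNX1 or SNX2 pairs with SNX5 or SNX6 to form tubular carriers, and SNX8 is another SNX-BAR protein of endosomes, linked to transport between early endosomes and the trans-Golgi network.

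Depth and the check of the targeted genes were as follows. The libraries held 22724439 to 28524025 counts. ZNF507 was 48.0 ± 1.06 CPM (counts scaled to a library of 1000000 counts; SD, n = 2) in sgZNF507 against 73.7 ± 2.48 (SD, n = 2) in EV, with a log2 fold change of -0.62 (SE 0.070, adjusted p = 0.00195 by edgeR's quasi-likelihood test). ZNF146 was 101 ± 2.47 CPM (SD, n = 2) in sgZNF146 against 110 ± 6.68 (SD, n = 2) in EV, which did not pass the test (log2 fold change -0.13, adjusted p = 1.00 by edgeR), so its RNA level does not check the sgZNF146 label. In sgZNF507 ZNF146 was 94.9 ± 9.22 CPM (SD, n = 2), with a log2 fold change of -0.21 from EV that also did not pass (adjusted p = 1.00 by edgeR). Reads at the guide sites and protein levels were not analysed here. In bulk RNA, fewer cells that express a gene and less RNA per cell cannot be told apart. Of the 5 markers set for HEK293, 3 matched a row: VIM at 1010 to 1150 CPM, NEFM at 66.3 to 77.5 and PAX2 at 5.25 to 8.03. The 8 matched markers of blood, liver, connective tissue, muscle and gut cells summed to 4.22 to 4.59 CPM in EV, 4.33 to 4.96 in sgZNF146 and 3.66 to 4.43 in sgZNF507. CD3E and KRT20 were at 0 in at least 1 library.

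SNX8 (ENSG00000106266) lies on the minus strand of chromosome 7 (chr7:2291405-2393953, GRCh37). Its canonical transcript has 11 exons between 2291405 and 2354076, is 4704 bases long and encodes 465 amino acids. Of the 4655 stretches of 50 bases in this transcript, the length of a read, 0 occurred in a transcript of any other annotated gene. The rest of the SNX8 exon union of 5750 bases was not searched. The longest isoforms of SNX8 overlap EIF3B on the opposite strand by 233 bases, none of them in exons of both genes.

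The start of SNX8 is shown because 2 copies of one short word stand there. The word CACGTG, which reads the same on both strands, is known as an E-box and forms the core of the element bound by TFEB and its relatives at lysosomal genes. Within 250 bases before and 50 bases after the RefSeq start of SNX8 (GRCh38.p14), it begins 197 and 1 bases before the start. The windows, with the word in capitals, lie on the minus strand at chr7:2314621-2314650 and chr7:2314425-2314454.
SNX8, 197 bases before the start: aggctccgtgtcCACGTGgacggggagggg
SNX8, 1 base before the start: gcgggaggaagtCACGTGggagcgcgggct
Of 35116 RefSeq promoters of this length, 7.26% held the word and 0.664% held it 2 or more times. Among the 8 members with a promoter entry, SNX8 was the 1 that held it, and VPS26A had no entry. No other word was searched for. A match of letters is a description of the sequence, and binding to it by any factor was not measured here.

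SNX8 was lower in sgZNF507 than in the other groups. It had 1398 and 1408 counts in EV, 1312 and 1294 in sgZNF146, and 841 and 1058 in sgZNF507. Scaled to library size, these were 56.2 and 50.9 CPM in EV, 51.7 and 51.4 in sgZNF146, and 36.5 in both sgZNF507 libraries. Both sgZNF507 libraries lay below all 4 others, and the EV and sgZNF146 libraries overlapped.

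The EV libraries averaged 53.5 ± 3.70 CPM of SNX8 (SD, n = 2). The sgZNF507 libraries averaged 36.5 ± 0.019 CPM (SD, n = 2), which was 0.682 times the EV level (log2 fold change -0.55, SE 0.079). Against sgZNF146, with 51.6 ± 0.188 CPM (SD, n = 2), the log2 fold change was -0.50 (SE 0.079), or 0.708 times. Both comparisons use the same sgZNF507 libraries and both are descriptions. The SD in sgZNF507 was smaller than counting error alone would give, which is 3.45% at 841 counts, so it understates the uncertainty of this mean.

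Between sgZNF146 and EV, the SNX8 difference was within the spread of the libraries, with a log2 fold change of -0.05 (95% interval -0.22 to 0.11, adjusted p = 1.00 by edgeR). This comparison shares the EV libraries with the first. The EV values were among those that chose SNX8, so its test here is not independent of that choice. The EV replicates differed by 10.3%, more than any other pair for this gene. Without EV replicate 1 the log2 fold change between sgZNF507 and EV was -0.48, and without EV replicate 2 it was -0.62.

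**Figure D1:**
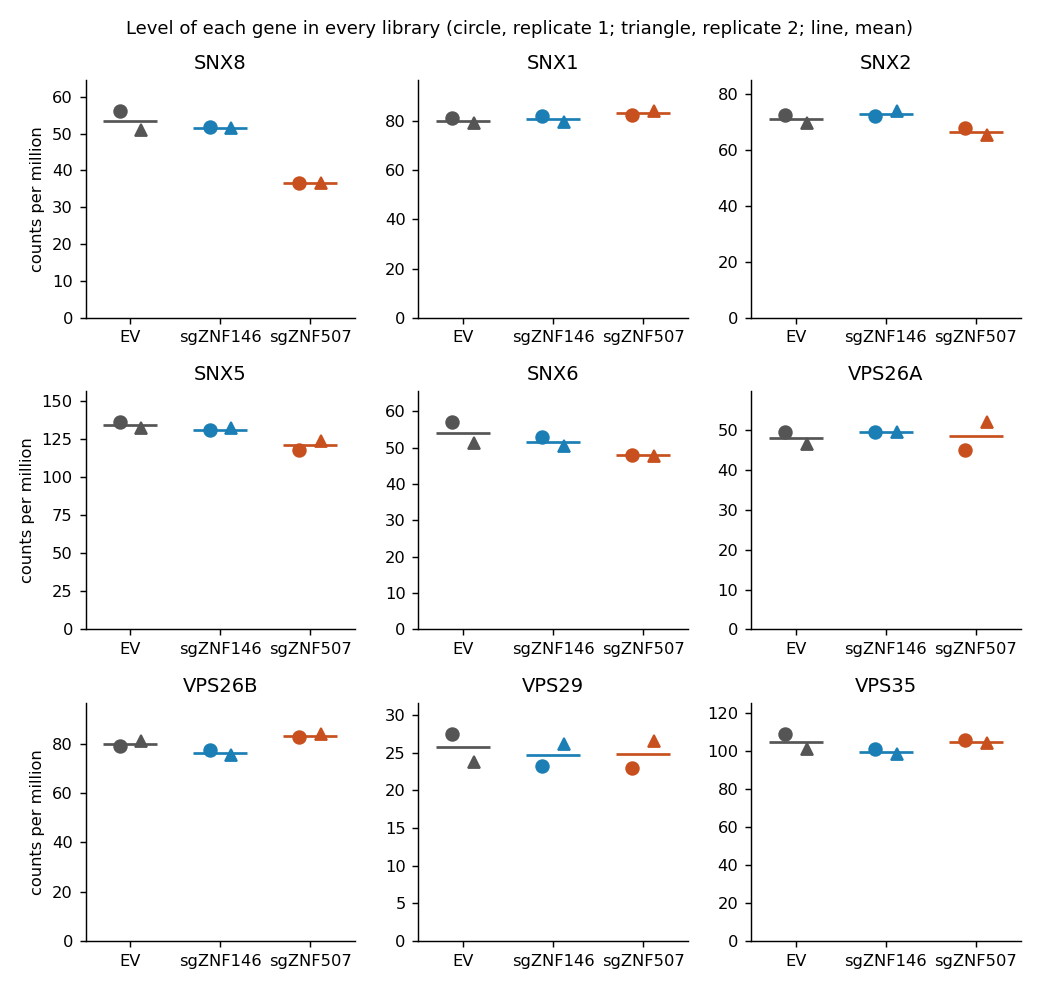
Level of each of the 9 genes in every library, in CPM on a linear axis that starts at 0, with libraries grouped as EV, sgZNF146 and sgZNF507. Circles and triangles are replicates 1 and 2 and lines are group means; the SNX8 points in sgZNF507 are both at 36.5 and lie below the other 4, which run from 50.9 to 56.2.

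Among the nexins that pair with each other, SNX1 and SNX2 encode the partners of the first kind. SNX1 (ENSG00000028528) was 81.1 and 79.1 CPM in EV, 82.0 and 79.4 in sgZNF146, and 82.2 and 84.1 in sgZNF507. Its sgZNF507 libraries lay just above all others, by less than the spread that the test allows. The log2 fold change between sgZNF507 and EV was 0.05 (SE 0.064, 95% interval -0.09 to 0.19, adjusted p = 1.00 by edgeR).

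SNX2 (ENSG00000205302) was 72.3 and 69.6 CPM in EV, 71.9 and 73.9 in sgZNF146, and 67.7 and 65.3 in sgZNF507. Here the sgZNF507 libraries lay below all others, opposite in direction to SNX1. The log2 fold change was -0.09 (SE 0.068, 95% interval -0.24 to 0.05) against EV and -0.13 (95% interval -0.28 to 0.01) against sgZNF146, each with an adjusted p of 1.00 by edgeR.

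SNX5 and SNX6 encode the partners of the second kind. SNX5 (ENSG00000089006) was 136 and 132 CPM in EV, 131 and 132 in sgZNF146, and 118 and 124 in sgZNF507. SNX6 (ENSG00000129515) was 57.0 and 51.4 CPM in EV, 53.1 and 50.4 in sgZNF146, and 48.1 and 47.8 in sgZNF507. For both genes the sgZNF507 libraries lay below the other 4. How many of all genes had sgZNF507 libraries below or above all others was not counted. Lower without overlap were 15.3% of all genes against EV and 16.5% against sgZNF146.

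SNX5 had a log2 fold change of -0.14 between sgZNF507 and EV (SE 0.061, 95% interval -0.28 to -0.01), with an unadjusted p of 0.035 and an adjusted p of 1.00 by edgeR. For SNX6 it was -0.18 (SE 0.079), with an unadjusted p of 0.0447 and an adjusted p of 1.00 by edgeR. Neither passed the threshold over all genes. Of all genes tested, 3.39% had an unadjusted p under 0.05 in this comparison, and 1.96% had one and were lower. The 95% intervals reach to a level 0.786 times that of EV at the widest, so 2 libraries a group fix the size of these differences only loosely.

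The canonical transcripts of the related nexins share only short identical runs, which bears on whether reads can be assigned. Similarity broken by mismatches was not measured. The longest identical run between SNX1 and SNX2 was 17 bases in exon 9 of both (GRCh37, chr15:64422205-64422221 and chr5:122152700-122152716, plus strand). Between SNX5 and SNX6 it was also 17 bases, across the junction of exons 10 and 11 in SNX5 (chr20:17929534-17929544 and chr20:17928284-17928289, minus strand) and of exons 11 and 12 in SNX6 (chr14:35044962-35044972 and chr14:35037214-35037219, minus strand). The run is in capitals and 6 bases of each transcript stand on either side of it.
SNX1: atgaccATCAAGATGAATGAATCagacat
SNX2: atgacaATCAAGATGAATGAATCggatgc
SNX5: acattgAAGCTGCTAAGGATCTCttatac
SNX6: aatctcAAGCTGCTAAGGATCTCctgtat
Both runs are shorter than a read of 50 bases. The longest run between SNX8 and SNX1 was 13 bases, and that between VPS26A and VPS26B was 12.

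Other annotated genes shared longer identical stretches. In SNX2, 33.7% of the 50-base stretches occurred in another transcript, nearly all in ENSG00000260686, a noncoding gene on the same strand counted 19 to 40 times a library. In SNX6 the share was 25.8%, mostly with the gene model ENSG00000279423, which was not analysed here, and in SNX5 it was 8.99%, mostly with pseudogenes counted at most 6 times and for 11 stretches with OVOL2, a gene on the same strand counted 24 to 35 times. SNX5 also contains SNORD17, a small nucleolar RNA with up to 1927 counts, which overlaps none of its exons.

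Of the retromer core, VPS35 encodes the scaffold that holds the trimer. VPS35 (ENSG00000069329) was 109 and 101 CPM in EV, 101 and 98.6 in sgZNF146, and 106 and 104 in sgZNF507. The sgZNF507 values fell between those of the EV replicates, and the log2 fold change was 0.00 (SE 0.064, 95% interval -0.14 to 0.14, adjusted p = 1.00 by edgeR). VPS29 (ENSG00000111237), the smallest core subunit at 182 amino acids, was 27.5 and 23.8 CPM in EV, 23.3 and 26.2 in sgZNF146, and 23.0 and 26.6 in sgZNF507. All 3 groups overlapped.

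VPS29 was also the least precise member, with replicates 11.1% to 15.4% apart in size and counting error of 4.35% at its lowest count. Its log2 fold change between sgZNF507 and EV was -0.05, with a 95% interval of -0.29 to 0.19. A difference of that size in either direction was not detectable at this depth and replication.

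VPS26A and VPS26B encode alternative forms of the arrestin-like subunit. VPS26A (ENSG00000122958) was 49.7 and 46.5 CPM in EV, 49.6 and 49.7 in sgZNF146, and 45.1 and 52.0 in sgZNF507. Its sgZNF507 replicates enclosed all other libraries. VPS26B (ENSG00000151502) was 79.1 and 81.3 CPM in EV, 77.4 and 75.5 in sgZNF146, and 82.7 and 84.1 in sgZNF507.

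For VPS26B the groups did not overlap, with sgZNF146 lowest and sgZNF507 highest. The log2 fold change between sgZNF507 and sgZNF146 was 0.13 (SE 0.064, 95% interval -0.01 to 0.27), with an adjusted p of 1.00 by edgeR. VPS26B overlaps NCAPD3 on the opposite strand, with 249 bases in exons of both genes, and NCAPD3 had 5369 to 6512 counts. Reads from that stretch can be told apart only where counting used strand, and the setting is not given in the sources used here.

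Counted over the family, 0 of the 8 tested genes passed in sgZNF507 against EV, where 0.182% of all genes tested were called. In that comparison 4 of the 8 were higher and 4 lower, with a median log2 fold change of -0.0221 against -0.00321 over all genes tested, and all values lay between -0.18 and 0.06. The groups did not overlap for 5 of the 8, 3 lower and 2 higher, where 29.3% of all genes did not overlap, 15.3% lower and 14.0% higher.

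In sgZNF146 against EV, 0 of 9 genes passed and 0.0% of all genes were called. The 9 include SNX8, whose EV values were among those that chose it. The count at an unadjusted p under 0.05 was 0 of 9 for these genes and 2.43% over all genes. The groups did not overlap for SNX5, VPS26B and VPS35, each lower in sgZNF146, where 28.6% of all genes did not overlap and 14.6% were lower without overlap. The median was -0.0525 against -0.00126 over all genes tested, and the values ran from -0.07 to 0.05.

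Between sgZNF507 and sgZNF146, 0 of 8 genes passed, where 0.173% of all genes were called, and 0 had an unadjusted p under 0.05, against 4.03% of all genes. The median was -0.0121, and the values ran from -0.13 for SNX2 to 0.13 for VPS26B. The groups did not overlap for 6 of the 8, 3 in each direction, where 32.1% of all genes did not overlap, 16.5% lower and 15.5% higher. DESeq2 also called 0 of these genes in each comparison.

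**Figure D2:**
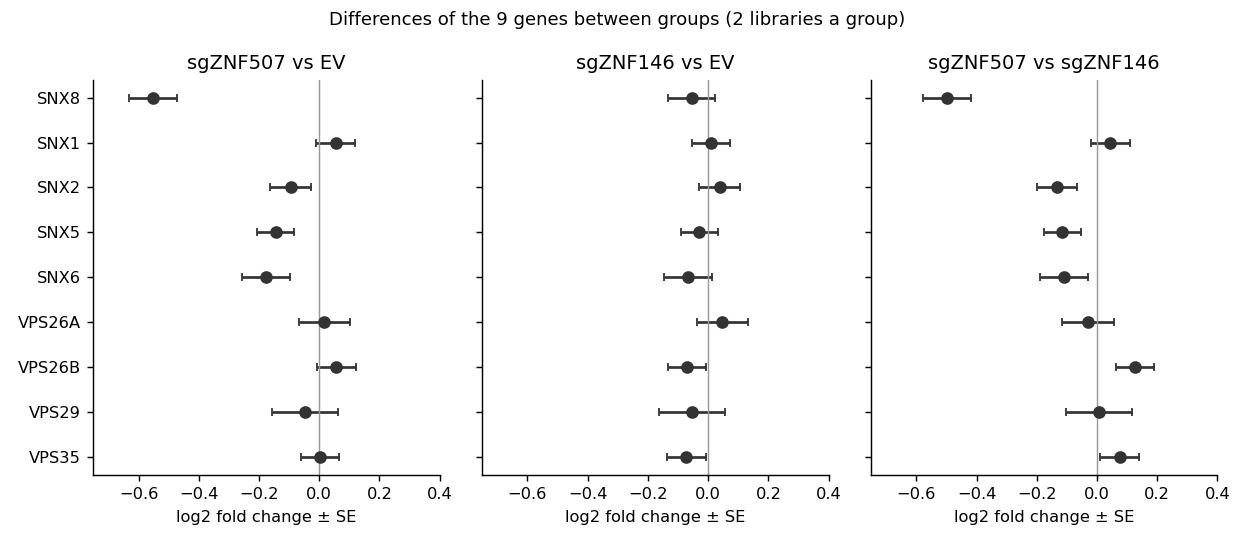
Log2 fold change of each of the 9 genes from edgeR in sgZNF507 vs EV, sgZNF146 vs EV and sgZNF507 vs sgZNF146, with bars of 1 standard error and 2 libraries a group. SNX8 stands at -0.55 and -0.50 where sgZNF507 is compared, values that chose it, and the other 8 genes lie between -0.18 and 0.13 in all panels.

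The level of SNX8 was also set against each other member within the same library, which needs no scaling to library size. For every 100 counts of SNX1 there were 69.2 and 64.4 SNX8 counts in EV, 63.1 and 64.8 in sgZNF146, and 44.4 and 43.4 in sgZNF507. For every 100 counts of VPS35 there were 51.7 and 50.4 in EV, 51.4 and 52.1 in sgZNF146, and 34.4 and 35.2 in sgZNF507. Both sgZNF507 libraries lay below the other 4 against 8 of 8 reference genes.

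Against SNX6, whose sgZNF507 libraries were also the lowest, the same order was seen. For every 100 counts of SNX6 there were 98.5 and 99.2 SNX8 counts in EV, 97.4 and 102 in sgZNF146, and 75.9 and 76.4 in sgZNF507. These ratios contain the SNX8 values that chose it and so describe the same difference on another scale.

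**Figure D3:**
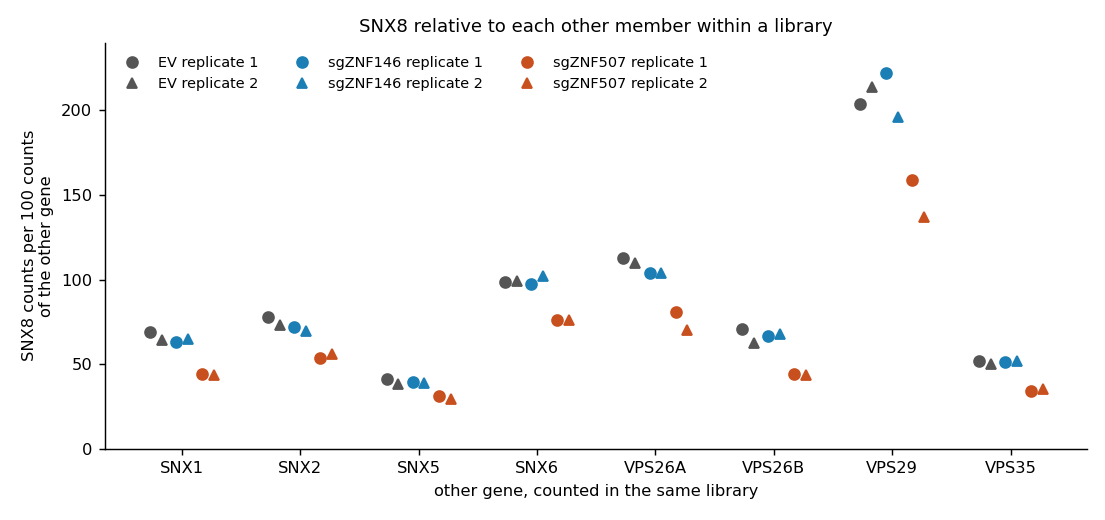
SNX8 counts per 100 counts of each other member in the same library, on a linear axis from 0, with colours for EV, sgZNF146 and sgZNF507 and circles and triangles for replicates 1 and 2. The sgZNF507 points lie below the other 4 for all 8 reference genes, for example at most 44.4 against at least 63.1 for SNX1.

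Levels of different genes were compared per length, as CPM per 1 kb of the union of annotated exons (RPKM). In EV, SNX5 was highest at 16.8 ± 0.313, followed by SNX6 at 13.3 ± 0.983, VPS26B at 12.4 ± 0.239, VPS35 at 10.8 ± 0.552 and VPS26A at 9.40 ± 0.438 (RPKM, SD, n = 2 each). SNX8 followed at 9.31 ± 0.643, then SNX2 at 8.25 ± 0.223, SNX1 at 8.19 ± 0.147 and VPS29 at 7.98 ± 0.808 (RPKM, SD, n = 2 each). The neighbours in this order whose libraries overlapped were SNX6 and VPS26B, VPS26A and SNX8, SNX2 and SNX1, and SNX1 and VPS29.

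SNX8 held rank 6 of 9 in EV and in sgZNF146, where it was 8.97 ± 0.0327 RPKM (SD, n = 2). In sgZNF507 it was 6.35 ± 0.0033 RPKM (SD, n = 2), rank 9. Scaled to the length of the canonical transcript instead, it held rank 6 in EV, 8 in sgZNF146 and 9 in sgZNF507, and SNX5 was at 57.2 RPKM in EV, since its canonical transcript of 2341 bases is much shorter than its exon union of 7953. Order among members therefore depends on the length used, while differences between groups do not.

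The balance within pairs was compared as shares of the level per length of exon union, without a test. SNX1 made up 49.6% and 50.0% of the per-length level of SNX1 and SNX2 in EV, 50.0% and 48.6% in sgZNF146, and 51.6% and 53.1% in sgZNF507. On the same strand, 2178 bases of SNX2 exons are also exons of ENSG00000260686. How reads there were counted is not given, which limits the SNX2 level and this share. SNX5 made up 55.0% to 57.3% of SNX5 and SNX6 across the 6 libraries, and its groups overlapped. VPS26A made up 44.2% and 41.9% of the VPS26 pair in EV, 44.7% and 45.4% in sgZNF146, and 40.8% and 43.8% in sgZNF507. The SNX1 share was thus highest in the sgZNF507 libraries and the VPS26A share highest in the sgZNF146 libraries, each without overlap with the other 4. For VPS26A the gap was narrow, 44.7% in sgZNF146 against 44.2% in EV. How often the shares of other gene pairs separate in this way was not counted. With the canonical transcript length instead, SNX5 made up 76.9% to 78.6% of its pair. The EV means were then 47.1% for SNX1 and 34.2% for VPS26A, so the shares depend on the length used.

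As a share of the per-length level of the 5 nexins, SNX8 was 17.0% and 16.3% in EV, 16.3% and 16.4% in sgZNF146, and 12.9% and 12.7% in sgZNF507. The sgZNF507 share was lower in both libraries than in any other. With the canonical transcript length the SNX8 share averaged 10.8% in EV, 10.6% in sgZNF146 and 8.22% in sgZNF507. The shares are those of RNA and were not measured for protein.

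Genes next to SNX8 on chromosome 7 were then examined. Of 13 annotated protein-coding genes within 500 kb, 10 were tested: MAD1L1, MRM2, NUDT1, EIF3B, CHST12, LFNG, BRAT1, IQCE, TTYH3 and GNA12. By edgeR, 0 of the 10 passed in any comparison, adjusted or at an unadjusted p under 0.05. Over all genes, the unadjusted share was 3.39% in sgZNF507 against EV, 2.43% in sgZNF146 against EV and 4.03% between the disrupted groups. In sgZNF507 against EV the log2 fold changes of the 10 neighbours ran from -0.07 to 0.25. Of these, 8 were higher and 2 lower, with a median of 0.108 against -0.00321 over all genes tested.

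In sgZNF146 against EV, 9 of the same 10 genes were higher and 1 lower, with a median of 0.0464. Between sgZNF507 and sgZNF146, 6 were higher and 4 lower, with a median of 0.0125. EIF3B, which encodes a subunit of a translation initiation factor and whose gene overlaps the longest isoforms of SNX8, had 441 and 460 CPM in the EV libraries. Its sgZNF507 libraries had 455 and 445 CPM, with a difference of 0.00 on the log2 scale (95% interval -0.13 to 0.13). NUDT1, on the other side, was 25.9 and 26.9 CPM in EV and 29.2 and 27.8 in sgZNF507, with 0.11 (95% interval -0.08 to 0.30). LFNG, the highest at 0.25, had only 77 to 125 counts a library and an interval from -0.24 to 0.74.

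**Figure D4:**
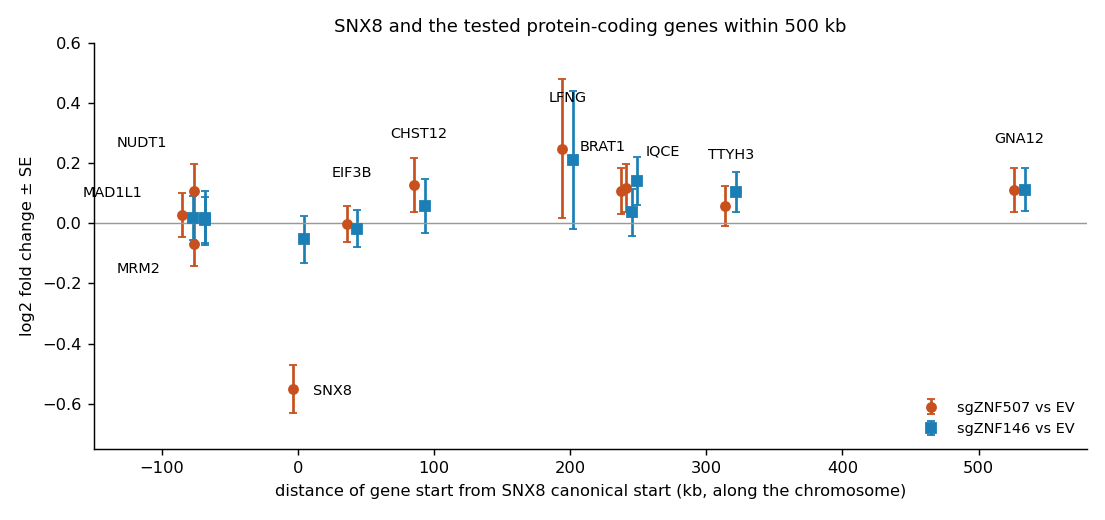
Log2 fold change, with bars of 1 standard error, of SNX8 and the 10 tested protein-coding genes within 500 kb, against the distance in kilobases of each gene's start from the SNX8 canonical start. Circles are sgZNF507 vs EV and squares sgZNF146 vs EV, set slightly apart; SNX8 is at -0.55 in sgZNF507 vs EV, and its neighbours lie between -0.07 and 0.25.

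Genes with related work in endosomal sorting were described from 5 lists, 47 genes in all, of which 46 were tested (SNX31, with 5 to 9 counts, was not). In sgZNF507 against EV, 1 of the 46 passed and was higher, where 0.114% of all genes were, 0 passed lower, and the median log2 fold change was 0.0311. In sgZNF146 against EV 0 passed, and between sgZNF507 and sgZNF146 the same 1 gene passed as higher, where 0.104% of all genes did. By DESeq2 on all 6 libraries, the counts were also 1, 0 and 1.

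Among the 24 other sorting nexins tested, 0 passed in any comparison, with a median of 0.0359 in sgZNF507 against EV. The 3 highest by CPM were SNX27, which links cargo to retromer for return to the cell surface, at 130 CPM against 127 in EV (log2 fold change 0.03), SNX17, which sorts integrins through retriever, at 0.03, and SNX25 at 0.11. SNX32, a close relative of SNX5 and SNX6, had the most negative value, -0.93, but only 12 to 29 counts a library, with an unadjusted p of 0.0447 and an adjusted p of 1.00 by edgeR.

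The WASH complex builds branched actin on retromer domains. In sgZNF507 against EV 0 of its 6 members passed, with a median of 0.028. WASHC5, the subunit also called strumpellin, was 55.5 and 57.5 CPM in EV, 58.4 and 61.3 in sgZNF146, and 66.9 and 66.3 in sgZNF507. Its sgZNF507 libraries were the highest, with a log2 fold change of 0.24 from EV (95% interval 0.08 to 0.39). By edgeR its unadjusted p was 0.00534 and its adjusted p 1.00, and against sgZNF146 its unadjusted p was 0.0488. Of all genes tested, 3.39% had an unadjusted p under 0.05 against EV. WASHC4 was at -0.09 and WASHC2C at 0.02. In sgZNF146 against EV, the unadjusted p was under 0.05 for WASHC3, at 0.37 with 145 to 211 counts a library.

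Retriever and the CCC complex form a related sorting machine. There 0 of 4 members passed in any comparison, with a median of 0.0465 in sgZNF507 against EV and values of 0.06 for CCDC93, 0.03 for VPS35L and -0.02 for VPS26C. Of the 5 regulators of retromer, 0 passed, with a median of -0.015. RAB7A, the late endosomal GTPase that recruits the core, was at -0.04, EHD1, which acts on tubules, at 0.00, and DNAJC13, a chaperone partner of WASH, at -0.01.

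Of the 7 cargo genes, IGF2R passed. It encodes the large mannose 6-phosphate receptor that carries enzymes to lysosomes and is returned by retromer or SNX-BAR carriers. IGF2R (ENSG00000197081) was 313 and 291 CPM in EV, 305 and 312 in sgZNF146, and 413 and 389 in sgZNF507. Both sgZNF507 libraries lay above the other 4.

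Relative to EV, IGF2R rose in sgZNF507 by a log2 fold change of 0.41 (SE 0.065, 95% interval 0.27 to 0.55, adjusted p = 0.0237 by edgeR), and relative to sgZNF146 by 0.38 (adjusted p = 0.0404 by edgeR). The difference between sgZNF146 and EV was 0.03 (adjusted p = 1.00 by edgeR). The study listed IGF2R from these same libraries, so this is not independent evidence of its direction. The log2 fold change from EV stayed between 0.35 and 0.47 with any library left out, and by DESeq2 on all 6 libraries the adjusted p was 2.16e-05. The call against EV was lost with edgeR without EV replicate 1 (adjusted p = 0.118), EV replicate 2 (0.475) or sgZNF507 replicate 1 (0.111), and when edgeR was fitted to the 4 libraries compared (0.0754). The call against sgZNF146 was lost without any library other than sgZNF507 replicate 2, with an adjusted p by edgeR of 0.0618 (EV replicate 1), 0.0673 (EV replicate 2), 0.671 (sgZNF146 replicate 1), 0.247 (sgZNF146 replicate 2) and 0.19 (sgZNF507 replicate 1).

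The other cargo genes did not pass in any comparison. M6PR, the small mannose 6-phosphate receptor, was 84.3 CPM in sgZNF507 against 86.0 in EV (log2 fold change -0.03), and SORT1, which encodes sortilin, was 134 against 130 (0.05). IGF2R differed in direction from SNX8 in sgZNF507, being higher where SNX8 was lower, and both were near the EV level in sgZNF146.

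The RefSeq promoter of IGF2R is shown beside that of SNX8 because it also held CACGTG more than once. It had 3 copies, 132, 74 and 28 bases before the start, on the plus strand of chromosome 6 (GRCh38.p14) at chr6:159968938-159968967, chr6:159968996-159969025 and chr6:159969042-159969071.
IGF2R, 132 bases before the start: gcgcgctgcgctCACGTGacccgggcctgg
IGF2R, 74 bases before the start: gaacaagggagtCACGTGagcggggggcgg
IGF2R, 28 bases before the start: ccgggcggctgtCACGTGacgcggttccgg
Beyond the members, promoters were looked up by name only for IGF2R, ZNF507 and HEXA, and not for the other listed genes. HEXA had no entry. The promoter of ZNF507 held the word once, 1 base before its start. Whether the word bears on the level of any of these genes was not tested.

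**Figure D5:**
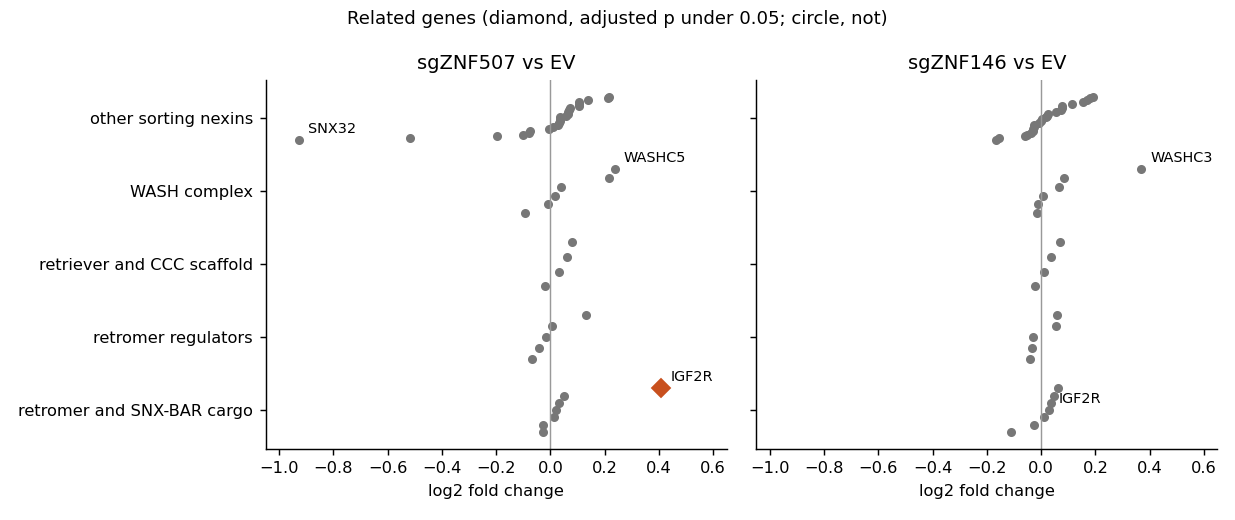
Log2 fold change of 46 tested genes of 5 related lists in sgZNF507 vs EV (left) and sgZNF146 vs EV (right), 1 point a gene, sorted within each list. The diamond is IGF2R at 0.41, the 1 gene with an adjusted p under 0.05, and SNX32 at -0.93 rests on 12 to 29 counts a library.

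The genes whose pattern over the 6 libraries was most like that of SNX8 were found by the root mean square difference of centred log2 CPM among 10083 protein-coding genes with a mean of at least 10 CPM. The closest were HEXA at 0.0706, ZNF507 at 0.0746, MT-ND4L at 0.0983, GPRASP2 at 0.109 and MT-ND2 at 0.111, against a median of 0.261 over all of these genes. HEXA, which encodes a subunit of lysosomal beta-hexosaminidase, was 63.4 and 63.8 CPM in EV, 60.3 and 64.0 in sgZNF146, and 44.8 and 48.0 in sgZNF507. ZNF507, the targeted gene, was 72.0 and 75.5, 71.3 and 73.3, and 47.2 and 48.7 CPM in the same order.

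These genes share with SNX8 a lower level in both sgZNF507 libraries, and the likeness rests on 6 libraries that fall into 3 groups. The SNX8 values that chose it enter this measure, so genes lower in sgZNF507 rank high by construction. The ranks are therefore descriptions. Among the members, SNX6 was the most like SNX8 at rank 130 (0.181), followed by SNX5 at rank 207 (0.189) and SNX2 at rank 366 (0.199). The other 5 members stood at ranks 3661 to 8217 of the 10083 genes.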

How the data were processed

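RNA was measured in 6 HEK293 libraries, which the labels describe as stranded, depleted of ribosomal RNA and made in biological duplicate, with paired reads of 50 bases. The authors clipped reads, removed ribosomal reads with Bowtie, mapped to hg19 with TopHat2 and counted reads per Ensembl gene with featureCounts; the deposited values are raw counts per gene, not normalized or pooled. The strand setting of the counting is not given in the sources used here. No step that removed PCR duplicates is described, so duplicates may have been counted as reads.

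Symbols and structures came from GENCODE on GRCh37 (96.1% of identifiers matched) and promoters from RefSeq on GRCh38.p14. The main test was that of edgeR 4.0.16 in R 4.3.3 (filterByExpr, TMM, quasi-likelihood test on all 6 libraries, Benjamini-Hochberg over 22010 genes, threshold 0.05). CPM and RPKM use TMM library sizes. SEs and intervals were derived from the test statistic. Groups came from the labels, and p-values set a difference against the spread between replicate libraries. That spread was pooled over the 3 groups and moderated toward that of all genes tested. Steps were tested on simulated data.

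The members, gene lists and tests were chosen with earlier results of these data known. Genes named were the members, listed genes past the threshold, the 3 of each list highest in CPM, tested neighbours within 500 kb, both targets and the 5 genes most like SNX8. SNX31, SNX32, WASHC3, WASHC5 and NCAPD3 were named after their values were seen where outside this rule. Alternatives were DESeq2 1.42.0, other normalizations and filters, the 4 libraries compared, a replicate block and leaving out each library. Figures were drawn with matplotlib 3.10.9. Reads, LINE-1 expression, binding and protein were not analysed here.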

Additional observations from a re-analysis of the deposited data

How the results depend on the processing

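Under 15 alternatives, 0 of the 8 members tested in the sgZNF507 comparisons and 0 of the 9 tested in sgZNF146 against EV were called. SNX8 was given no test in the sgZNF507 comparisons under any setting. Of 405 fold changes of members 387 held, 16 turned sign and 2 moved by more than the replicate spread. The 2 were SNX8 in sgZNF507 against EV without EV replicate 1 or 2, which ranged from -0.62 to -0.48 when a library was left out and from -0.55 to -0.54 otherwise. The sign turned only when a library was left out. This held against EV in sgZNF507 for VPS26A (-0.08 to 0.11), VPS29 (-0.15 to 0.06) and VPS35 (-0.05 to 0.06). In sgZNF146 it held for SNX8 (-0.13 to 0.02), SNX1 (-0.01 to 0.03), SNX6 (-0.15 to 0.01), VPS26A (-0.01 to 0.09), VPS29 (-0.16 to 0.05), IGF2R (-0.03 to 0.09) and ZNF507 (-0.06 to 0.00). Between sgZNF507 and sgZNF146 it held for VPS26A (-0.12 to 0.06), VPS29 (-0.10 to 0.10) and ZNF146 (-0.18 to 0.01). Without sgZNF146 replicate 1 or 2 the adjusted p of ZNF507 between sgZNF507 and sgZNF146 was 0.0502 or 0.056 by edgeR. SNX8 held rank 6 per length in EV with either length, the second length being chosen after the data were seen.

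Genes called over the whole table, against 40 in sgZNF507 and 0 in sgZNF146 relative to EV and 38 between them, were 101, 19 and 112 with no filter and 12 to 44, 0 to 3 and 13 to 37 with a library left out. Relative to EV, sgZNF146 had 3 calls with edgeR and 3 with DESeq2 on the 4 libraries compared. Of the related genes, 0 were called with edgeR on 4 libraries in either sgZNF507 comparison, 0 with upper quartile scaling between sgZNF507 and sgZNF146, where IGF2R had an adjusted p of 0.0575 by edgeR, and 0 to 1 with a library left out. The cause was not tested.

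Libraries of the groups share replicate numbers, but the labels do not say that a number marks a shared batch or day. Same-numbered deviations correlated across genes by 0.138 (EV and sgZNF146), 0.176 (EV and sgZNF507) and 0.145 (sgZNF146 and sgZNF507). With the replicate block, edgeR called 121, 33 and 196 genes and DESeq2 called 63, 0 and 75, in sgZNF507 against EV, sgZNF146 against EV and between the disrupted groups. None of the members tested (8, 9 and 8, SNX8 being untested where sgZNF507 was compared) was called with the block. The adjusted p of IGF2R in sgZNF507 against EV was 2.07e-06 by edgeR and 1.93e-09 by DESeq2 with the block.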
